A study of Mus musculus with 12 samples.

Results

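The stretch of mouse chromosome 1 between 130 and 140 Mb (assembly mm9, coordinates as the array files give them) was examined probe by probe in splenic B cells with and without STAT6. Its members are the non-control probes with a start from chr1:130000000 to 139999999, apart from 7 probes of 6 gene names left out by name. They number 385 of the 55681 probes on the array and carry 190 gene names. Of these, 192 probes carry 140 names of genes or transcripts or, in some cases, only the probe's own identifier. The other 193 probes stand for 50 intervals that the array names by position and strand (F or R), without a gene. The stretch was chosen by the genotype differences measured on these same arrays, which recur there with and without interleukin 4 (IL-4), so the genotype values below describe the choice and carry no test. The response to IL-4 was not used in that choice and was tested.

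The study profiled 4 groups with 3 one-colour Agilent arrays each. All B cells came from spleens of female BALB/c mice aged 9 weeks, isolated by negative selection, and all received anti-CD40 antibody (10 µg/ml) and lipopolysaccharide (2 µg/ml) for 4 days, so the groups without IL-4 were activated too. The groups were wild type without IL-4, wild type with 25 ng/ml IL-4, STAT6 knockout without IL-4 and STAT6 knockout with 25 ng/ml IL-4. The labels do not give the knockout allele, and they call the cultures triplicates without naming separate mice. The p-values may therefore measure only the spread between cultures.

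STAT6 is the transcription factor that the IL-4 receptor switches on: receptor-bound kinases phosphorylate it, it pairs, enters the nucleus and binds target promoters and enhancers. In B cells activated through CD40 it is best known for driving switching to IgG1 and IgE and for raising CD23 and MHC class II. The Stat6 gene itself lies on chromosome 10, so the probes described here are on another chromosome. The 130 to 140 Mb stretch holds a mix of genes: complement regulators and Fc receptors, signalling phosphatases such as CD45, cell cycle and chromatin genes such as Mdm4 and Kdm5b, and muscle genes such as Tnnt2 and Cacna1s.

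Levels are log2 signals relative to the 75th percentile of their own array, which lay at an intensity of 296.3 to 355.6, and they are not comparable between probes. Between 40.7 and 44% of the spots of an array were well above background. All 3 Stat6 probes were lower in every knockout array than in every wild-type array, by 0.88, 2.28 and 1.94 on the log2 scale without IL-4 and by 1.28, 2.36 and 1.94 with IL-4, and all 3 stayed above background on all 12 arrays. The B cell markers Cd79a, Cd79b, Ms4a1, Pax5 and Cd22 were above background on all 12 arrays. Of 18 markers of other cell types, 8 were above background on all 12 arrays, among them Siglech, Flt3, Emr1 and Cd4, and 4 were on none (Mcpt8, Ncr1, Klrb1c and Cd8a). Group means of these 18 markers ran from -5.99 to 6.85, and their part in the values of the stretch was not tested. The arrays came on 2 slides. The 6 wild-type arrays and knockout replicates 1 and 2 without IL-4 lay on slide 1, while slide 2 carried knockout replicate 3 without IL-4 and the 3 knockout arrays with IL-4. Without IL-4 the genotypes could thus also be compared within slide 1, but with IL-4 no slide held both genotypes, and slide and genotype cannot be told apart there except through the knockout controls on both slides.

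Probes entered the analysis if 1 or more groups had them well above background on each of its 3 arrays. This held for 153 of the 385 probes (39.7%, against 41.2% of all probes), with 97 gene names, 49 of the kept probes standing for unnamed intervals. Of the rest, 167 were above background on no array. Names with probes that were not kept include the cytokines Il19, Il20 and Il24, the IgA and IgM receptor Fcamr, the complement inhibitor C4bp, the muscle genes Myog, Mybph, Tnni1 and Lmod1, and the neuronal adhesion genes Nfasc and Cntn2. A kept probe that is seen in only 1 genotype had to differ to be kept. In at least 1 IL-4 condition, 16 kept probes were above background on all arrays of 1 genotype and on none of the other. The share of such probes over the whole array was not counted, so nothing is read from this number.

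The sequences below belong to the probes that carry the genotype pattern, written 5′ to 3′ as the array files list them. For probes of protein-coding genes the first 30 bases are shown, and for unnamed intervals and the predicted gene Gm15850 the whole 60-base probe. The first set shows probes with a genotype difference in 1 direction and a bright, reproducible signal, or with background signal in 1 genotype: Ctse at chr1:133571990-133572049 (plus strand), Rnpep at chr1:137159464-137159523 (minus), Ipo9 at chr1:137279150-137279209 (minus), Daf2 at chr1:132307236-132307996 (minus, split by a gap in the genome), Tnnt2 at chr1:137747976-137748288 (plus, also split) and Gm15850 at chr1:138022755-138022814 (minus).
Ctse: gacctgtttttacagttggtttatttgtat
Rnpep: ctcagaaaggcttcacaggcttcctgaaga
Ipo9: agattaaagatttggagtactgtgtacctc
Daf2: agaaaccttccacagttaaagttccagcaa
Tnnt2: agaagttcgacctgcaggaaaagttcaagc
Gm15850: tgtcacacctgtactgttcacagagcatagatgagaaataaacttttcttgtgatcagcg

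The second set shows probes of the same gene that gave different genotype differences. For Mdm4 (minus strand) the first starts at chr1:134886426-134886485 and the second at chr1:134888407-134888466. For Etnk2 (plus strand) the 3 probes lie at chr1:135262332-135262391, chr1:135269813-135269872 and chr1:135276803-135276862.
Mdm4 first probe: gacccattaagctctgtttacagccttgaa
Mdm4 second probe: acagatattttttctgagcagaaagctgaa
Etnk2 first probe: ctttcagaactggctgtgctacgagtatgt
Etnk2 second probe: atgatctactctgcaagaatatcatctatg
Etnk2 last probe: agtccttacaggcctaagggagtctggtat

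The last set shows the interval probes with a genotype difference in both conditions. The pair in the interval chr1:134237581-134248506_R lies at chr1:134245843-134245902 and chr1:134245852-134245911 on the minus strand and shares 51 bases, given in capitals. Both of these probes repeat a 23-base unit from end to end. The pair in the interval chr1:138473514-138476054_R lies at chr1:138473515-138473574 and chr1:138473646-138473705, also on the minus strand, with 71 bases between them and no capitals.
A_30_P01027435: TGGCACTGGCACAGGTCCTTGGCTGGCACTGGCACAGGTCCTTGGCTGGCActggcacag
A_30_P01032546: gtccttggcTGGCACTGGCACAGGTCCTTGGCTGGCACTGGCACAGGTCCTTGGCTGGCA
A_30_P01025555: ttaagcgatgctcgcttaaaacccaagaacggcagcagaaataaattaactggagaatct
A_30_P01033579: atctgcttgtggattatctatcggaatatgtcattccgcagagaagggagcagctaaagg

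Among the 153 kept probes, 19 differed between the genotypes by 2-fold or more at an adjusted p under 0.05 in the same direction both without and with IL-4. In the knockout 9 of the 19 were higher and 10 were lower, and together they carried 15 names. This is 12.4% of the kept probes of the stretch, against 0.366% (84 of 22940) over the array, and 22.6% of all such probes lay in the stretch. Since this recurrence chose the stretch, nothing is read from these shares. In such bulk samples fewer cells of a kind and less RNA per cell cannot be told apart. Taken 1 condition at a time, 21 probes passed without IL-4, against 1.04% of all probes, and 34 passed with IL-4, against 9.54%. Without IL-4, 10 were higher and 11 lower in the knockout (0.724% and 0.314% of all probes), and with IL-4, 16 were higher and 18 lower (4.67% and 4.87%). The 3 arrays of one genotype lay apart from those of the other in both conditions at 18 probes that were higher in the knockout (4.52% of all probes) and 21 that were lower (6.18%), and at 9 that switched direction (11.2%). Across the 153 probes the difference without IL-4 and the difference with IL-4 had a Pearson correlation of 0.72, against 0.03 over all 22940 kept probes. The points are probes, some of which share a transcript, and each comparison rests on 6 arrays of its own. Of 23 probes of the stretch with a 2-fold difference without IL-4, 20 (87%) had the same sign with IL-4, against 255 of 363 (70.2%) over the array.

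The 19 probes were spread over the stretch and were interleaved with probes that differed little. The first was Lct at chr1:130181389 and the last an interval probe at chr1:138473646, after which 27 kept probes followed with none past the threshold in both conditions. By megabase from the start, 5 lay between 137 and 138 Mb, 4 between 134 and 135 Mb, 3 each in the megabases from 135 and 138 Mb, and 1 each in those from 130, 132, 133 and 136 Mb. At the proximal edge, Rab3gap1 at chr1:129839652, just outside, had differences of -1.31 and -1.23, while AK040646 at chr1:130071277, the first kept probe inside, had 0.61 and 0.13. At the distal edge, Ptprc at chr1:139961083, the last kept probe inside, had -0.17 and 0.45, and A130071D04Rik at chr1:140058514, just outside, had -0.03 and 0.17. The median GC content of the 19 probes was 45%, against 41.7% for the other kept probes of the stretch and 43.3% for all kept probes.

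Ctse had one of the widest gaps between the genotypes at a level well above background in every array. It encodes cathepsin E, an aspartic protease of endosomes. Without IL-4 its level was 1.99, 1.95 and 1.94 in wild type and -1, -1.15 and -1.21 in the knockout. With IL-4 it was 2.25, 2.26 and 2.25 in wild type and -0.99, -1.14 and -1.38 in the knockout. Every knockout array lay below every wild-type array. The mean difference was -3.09 (SE 0.09, 8.49-fold lower) without IL-4, -3.04 within slide 1, and -3.43 (SE 0.09) with IL-4.

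Ipo9, which encodes a nuclear import receptor, showed little spread between arrays. Its level was 0.7, 0.69 and 0.75 in wild type and -0.78, -0.71 and -0.69 in the knockout without IL-4. With IL-4 it was 0.68, 0.7 and 0.68 in wild type and -0.76, -0.7 and -0.7 in the knockout. Neither genotype moved with IL-4 by more than 0.03, and the genotype difference was -1.43 and -1.4 (SE 0.04 each), or 2.7-fold and 2.64-fold lower.

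Rnpep, encoding aminopeptidase B, differed the other way. Its level without IL-4 was 1.73, 1.97 and 1.94 in wild type and 3.7, 3.5 and 3.36 in the knockout, and with IL-4 it was 2.31, 2.27 and 2.24 against 3.7, 3.66 and 3.54. The knockout was 3.11-fold higher without IL-4 (log2 1.64, SE 0.09; 1.72 within slide 1) and 2.57-fold higher with IL-4 (log2 1.36, SE 0.09). The ranges of the genotypes did not overlap in either condition.

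Daf2, called Cd55b in the current RefSeq annotation, encodes a decay-accelerating factor that restrains complement on the cell surface. Wild-type levels were -0.95, -0.7 and -1.12 without IL-4 and 0.08, 0.3 and 0.07 with IL-4. Knockout levels were 1.74, 1.69 and 1.57 without IL-4 and 2.42, 2.19 and 2.13 with IL-4. The knockout stood above wild type on every array, by 2.59 (SE 0.12, 6.02-fold) and 2.1 (SE 0.12, 4.29-fold). Its neighbour and paralogue Cd55 differed by only 0.21 and 0.2. The probes of paralogues can share sequence, and cross-binding between Daf2 and Cd55 was not tested.

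Several genes with a known home outside B cells were at background in 1 genotype. Tnnt2, the cardiac troponin T gene, was above background on all 6 knockout arrays and on none of the 6 wild-type arrays. Its knockout levels were -2.58, -2.76 and -2.5 without IL-4 and -2.35, -2.71 and -2.31 with IL-4, so the knockout was at least 2.29-fold and at least 2.59-fold higher. These lower bounds set the mean of the bright group against the lowest signal that counted as above background on each array of the dim group, or the dim probe's own signal where that was higher. Gm15850, a predicted gene without an assigned function here, followed the same pattern, at -1.9, -1.56 and -1.32 and then -1.31, -1.23 and -1 in the knockout. It was at least 4.65-fold higher without IL-4 and at least 6.28-fold higher with IL-4. Wild-type arrays read between -5.69 and -3.97 for Gm15850 and between -5.81 and -4.6 for Tnnt2, all of them not well above background.

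Lct, encoding the gut enzyme lactase, was seen in wild type. Its level was -2.48, -2.14 and -2.44 in wild type without IL-4, and no knockout array in either condition was above background. The knockout was at least 3.33-fold lower without IL-4. With IL-4 the wild-type arrays read -3.73, -3.61 and -3.55, only 1 of them above background, and the knockout was at least 1.31-fold lower. Fitted with slide as a block, the Lct difference with IL-4 was -1.28 and no longer passed the threshold.

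Chil1 encodes a secreted chitinase-like protein of inflamed tissue. Wild-type levels were -3.5, -2.74 and -2.89 without IL-4 and -1.55, -1.58 and -1.72 with IL-4, and none of the 6 knockout arrays was above background. The knockout was at least 2.06-fold lower without IL-4 and at least 5.28-fold lower with IL-4. The gap was thus present without IL-4 and was wider with IL-4, where wild type had risen.

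Both probes of Ptprv, a receptor-type protein tyrosine phosphatase gene, were lower in the knockout. The first read 0.92, 0.93 and 0.95 in wild type and -0.68, -0.6 and -0.36 in the knockout without IL-4, and 0.44, 0.41 and 0.49 against -1.03, -0.85 and -0.79 with IL-4. Its difference was -1.48 (SE 0.09, 2.78-fold lower) and -1.34 (SE 0.09, 2.53-fold lower). The second read -1.89 (SE 0.36) without IL-4, where 1 of 3 knockout arrays was above background, and was at least 3.73-fold lower with IL-4, where none was. Fitted with slide as a block, the second probe no longer passed the threshold in either condition.

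Probes of 2 intervals without a gene name were also on the list, and the 2 kept probes of each gave like values. The array holds 5 probes of chr1:134237581-134248506_R and 3 of chr1:138473514-138476054_R, and the rest were not kept. The 2 kept, overlapping probes of the interval chr1:134237581-134248506_R, whose repeated unit is shown above, were above background on no wild-type array. In the knockout they were above background on 2 and 1 of 3 arrays without IL-4 and on all 3 with IL-4. With IL-4 they were at least 1.72-fold and at least 1.44-fold higher in the knockout. Since they share 51 of 60 bases, these 2 probes are not separate evidence. The 2 kept probes of the interval chr1:138473514-138476054_R do not overlap and both read lower in the knockout, where no array was above background. Wild-type levels of the first were -2.45, -2.17 and -2.47 without IL-4 and -2.55, -2.58 and -2.76 with IL-4. The first was at least 3.3-fold lower without IL-4 and at least 2.62-fold lower with IL-4. The second was at least 2.2-fold lower without IL-4. With IL-4 it was at least 1.19-fold lower, but only 1 of 3 wild-type arrays was above background there.

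For some genes the probes disagreed. Etnk2 encodes ethanolamine kinase 2, which starts the synthesis of phosphatidylethanolamine. Its first probe read 1.3, 1.23 and 1.07 in wild type and -2.92, -2.56 and -1.5 in the knockout without IL-4, and 0.09, -0.01 and -0.03 against -1.93, -1.8 and -1.42 with IL-4. This probe was lower in the knockout by 3.52 (SE 0.29, 11.5-fold) without IL-4. Its last probe, further along the gene, was higher in the knockout instead, at 0.5, 0.61 and 0.46 against 1.17, 1.51 and 2.04 without IL-4 and 1.13, 1.2 and 1.11 against 2.65, 2.41 and 3.03 with IL-4. The last probe's difference was 1.05 (SE 0.2) without IL-4 and 1.55 (SE 0.2) with IL-4, and the second probe, lying between them and above background on no wild-type array, was at least 1.55-fold and at least 2.36-fold higher in the knockout. An unnamed probe at chr1:135271556, between the second and last Etnk2 probes, read 1 and 1.15 (SE 0.27 each). Within slide 1 the higher values without IL-4 were smaller, at 0.82 for the last probe and 0.74 for the unnamed probe, and neither passed the threshold with slide as a block. The first probe's difference within slide 1 was -3.94.

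Mdm4, whose protein binds and restrains p53, gave a difference at 1 of its 2 probes. The first probe read 1.81, 1.81 and 1.69 in wild type and 0.53, 0.72 and 0.69 in the knockout without IL-4, and 2.49, 2.33 and 2.31 against 0.8, 0.95 and 0.95 with IL-4. Its difference was -1.12 and -1.47 (SE 0.07 each). The second probe read 0.05 and -0.23 (SE 0.09 each), within or near the spread of the arrays. Pik3c2b, a class II phosphoinositide 3-kinase gene, read -3.56, -2.87 and -2.99 in wild type and -2.28, -1.84 and -1.43 in the knockout without IL-4 at its first probe, and -4.04, -4.81 and -4.93 against -2.66, -2.63 and -2.08 with IL-4. Its genotype difference without IL-4 was 1.29 (SE 0.3) at this probe, 0.45 (SE 0.49) at the second and -0.13 (SE 0.28) at the last. With IL-4 no wild-type array was above background at any of the 3 probes, and the knockout was at least 2.59-fold higher at the first and at least 1.39-fold higher at the second, while the last was below background in both genotypes. With slide as a block, the first Pik3c2b probe read 1.08 without IL-4 and lost its call there.

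Most other names had small gaps between their probes. The median absolute genotype difference of the stretch without IL-4 was 0.21, so a gap under 0.5 says little about agreement. Of 33 gene or interval names with 2 or more kept probes, 25 had genotype differences without IL-4 less than 0.5 apart. The gap was 0.05 for Rab7l1 (now Rab29), 0.06 for Ddx59, 0.09 for Ptpn7 and 0.05 for the interval chr1:138473514-138476054_R. Gaps of 1 or more were seen for Etnk2, Mdm4, Pik3c2b, Mfsd4, Kdm5b, the transcript ENSMUST00000054333 and the interval chr1:134867906-134885481_R.

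A further list of 20 genes with roles in lymphocytes or in dividing cells was described whatever their values, with 27 kept probes among them. Of these 27, 1 probe, the first of Mdm4, passed the 2-fold threshold between the genotypes without IL-4 (1.04% of all probes did), and 3 passed with IL-4 (9.54% of all probes), namely the same Mdm4 probe, Lax1 and the first Kdm5b probe. Ptprc, which encodes CD45, read 5.31, 5.35 and 5.4 in wild type and 5.24, 5.2 and 5.1 in the knockout without IL-4. Faim3, the IgM Fc receptor gene now called Fcmr, differed by 0.19 and -0.15, Mapkapk2 by -0.06 and 0.09, Adipor1 by 0.03 and 0.15, and Zfp281 by -0.39 and -0.37. Dars, encoding aspartyl-tRNA synthetase, differed by -0.38 and -0.77.

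The question for IL-4 was which genes of the stretch respond to it in each genotype. In wild type, 48 of the 153 probes rose and 42 fell at an adjusted p under 0.05 (limma with Benjamini-Hochberg adjustment over all 22940 probes), against 25.9% rising and 29.4% falling over the array. With the 2-fold minimum, 27 passed, or 17.6% against a background of 12.3%, of which 12 were higher (5.74% of all probes) and 15 lower (6.61%). In the knockout 38 rose and 17 fell, against 25.9% and 13.7%, and 6 passed the 2-fold minimum, or 3.92% against 3.27%, of which 2 were higher (0.854% of all probes) and 4 lower (2.41%). Of these, 7 of the 27 and 1 of the 6 were above background on all 3 arrays of 1 group only, and so were tested only because that group was high. The wild-type count was 9 after normexp background correction and 10 among the 114 probes above background on all arrays. The knockout count was 1 and 2 under these settings, 5, all lower, with slide as a block, and 10 without knockout control replicate 3, the only control array on slide 2.

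Cyb5r1, a cytochrome b5 reductase gene, had the largest rise with IL-4 in wild type. Its second probe read 2.29, 2.42 and 2.25 without IL-4 and 4.56, 4.51 and 4.4 with IL-4 in wild type, and 2.48, 2.4 and 2.46 against 3.31, 3.29 and 3.18 in the knockout. It rose by 2.17 (4.49-fold, SE 0.06, adjusted p = 1.56e-09) in wild type and by 0.82 (1.76-fold, SE 0.06, adjusted p = 1.1e-05) in the knockout. The first probe rose by 1.73 (SE 0.12, adjusted p = 5.66e-07) in wild type and read 0.21 (SE 0.12, adjusted p = 0.184) in the knockout. The genotypes did not differ by more than 0.14 at either probe without IL-4.

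Cdk18, encoding a cyclin-dependent kinase, rose in wild type from 0.17, 0.22 and 0.01 to 1.73, 1.69 and 1.58 (by 1.53, 2.89-fold, SE 0.14, adjusted p = 5.37e-06). In the knockout it read -0.16, -0.22 and 0.35 without and -0.35, -0.53 and -0.27 with IL-4, a change of -0.37 (SE 0.14, adjusted p = 0.0529). Within slide 2 that change was -0.73, but slide 2 held only 1 knockout control array, the one that read 0.35. Chil1 rose by 1.43 (2.69-fold, SE 0.29, adjusted p = 0.00195) in wild type, from the levels given above, while all knockout arrays were at background. Daf2, higher in the knockout throughout, also rose with IL-4 in both genotypes, by 1.07 (SE 0.12, adjusted p = 2.57e-05) in wild type and 0.58 (SE 0.12, adjusted p = 0.00328) in the knockout.

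Mfsd4, now Mfsd4a, a transporter-like membrane protein gene, moved in opposite directions at 2 of its 3 probes. At the middle probe, wild-type levels were -2.21, -2.27 and -2 without and -0.62, -0.6 and -0.7 with IL-4, a rise of 1.52 (SE 0.34, adjusted p = 0.00322). Knockout levels were -2.51, -1.5 and -1.2 without and -4.21, -3.76 and -3.02 with IL-4, where only 1 of 3 arrays was above background, so that it fell by 1.92 (SE 0.34, adjusted p = 0.00149). The most distal probe was above background on all 3 arrays of wild type with IL-4, on 2 of the knockout without IL-4 and on no others, and so was tested only because wild type with IL-4 was high. It read at least 1.87-fold higher with IL-4 in wild type (adjusted p = 0.0191) and at least 2.11-fold lower in the knockout (adjusted p = 0.0124). Its wild-type call was lost with no filter on dim probes (adjusted p = 0.0586), without wild-type control replicate 2 (change 0.97, adjusted p = 0.0767) or wild-type IL-4 replicate 1 (1.21, adjusted p = 0.051) or 2 (1.17, adjusted p = 0.0545), and after normexp (0.31, adjusted p = 0.0561). Its knockout call was lost without knockout IL-4 replicate 1 (-1.2, adjusted p = 0.05). The most proximal probe read -0.02 in wild type (adjusted p = 0.889) and -0.24 in the knockout (adjusted p = 0.119).

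Cacna1s, encoding the pore-forming subunit of the skeletal muscle calcium channel, had the largest fall. Its second probe read 2.16, 2.44 and 2.22 without IL-4 and -0.82, -0.51 and -0.78 with IL-4 in wild type, and 2.78, 2.83 and 2.91 against 1.87, 1.94 and 2.34 in the knockout. The fall was 7.88-fold (log2 -2.98, SE 0.13, adjusted p = 2.47e-08) in wild type and 1.73-fold (log2 -0.79, SE 0.13, adjusted p = 0.000986) in the knockout. The first probe fell by 2.49 (SE 0.16, adjusted p = 4.32e-07) and by 0.88 (SE 0.16, adjusted p = 0.00176).

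Lax1 encodes an adaptor that dampens antigen receptor signals in lymphocytes. Wild-type levels were -0.22, -0.13 and -0.07 without and -2.3, -2.52 and -2.3 with IL-4, and knockout levels -0.06, -0.25 and -0.45 against -0.74, -0.65 and -0.92. It fell 4.7-fold in wild type (log2 -2.23, SE 0.11, adjusted p = 5.11e-08). In the knockout it fell by 0.51 (SE 0.11, adjusted p = 0.0039), a call lost with slide as a block (-0.32, adjusted p = 0.0951). Pik3c2b fell in wild type by 1.45 (SE 0.3, adjusted p = 0.00183) at its first probe, where no wild-type array with IL-4 was above background, which gives at least 1.61-fold.

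Some members fell with IL-4 in both genotypes. Btg2, an antiproliferative gene induced by p53, fell by 0.87 (SE 0.07, adjusted p = 1.54e-06) in wild type and by 0.8 (SE 0.07, adjusted p = 1.54e-05) in the knockout, with a difference between these changes of -0.07 (adjusted p = 0.566). Nearby, both probes of the interval chr1:135956616-135957485_R fell in both genotypes. The first was above background on no array with IL-4 and fell at least 3.89-fold in wild type (adjusted p = 5.12e-05) and at least 3.44-fold in the knockout (adjusted p = 0.000486). The second fell by 2.48 (SE 0.18, adjusted p = 1.04e-06) and by 1.77 (SE 0.18, adjusted p = 5.29e-05). The difference of -0.71 between these changes had an adjusted p = 0.0445. That call was lost with slide as a block (adjusted p = 0.215) and with replicate number as a block (0.0506). It was also lost with no filter on dim probes (0.135), after normexp (0.0511), and in 9 of 12 cases with 1 array left out. At the distal end, A430106G13Rik fell by 1.11 (SE 0.12, adjusted p = 1.98e-05) and by 0.81 (SE 0.12, adjusted p = 0.000468).

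Neighbouring probes of an interval moved together in some intervals and not in others. All 7 kept probes of the interval chr1:138528250-138538250_F rose in wild type, by 0.58 to 1.05, and 1 of the 7 rose in the knockout (0.37, adjusted p = 0.0304). The probe at 1.05 was above background on all 3 arrays of wild type with IL-4 only, and was kept through that group. The 3 kept probes of the interval chr1:139822286-139822985_F fell in wild type by 0.61, 0.97 and 0.96 (adjusted p = 0.0124, 0.00536 and 0.0056), and read -0.46, -0.63 and -0.6 in the knockout (adjusted p = 0.0612, 0.0561 and 0.0672). In the interval chr1:134867906-134885481_R, by contrast, 1 of 7 kept probes rose in wild type, by 1.81 (adjusted p = 0.000105), while the probes on either side of it read 0.33 and 0.41 (adjusted p = 0.139 and 0.137) and all 7 ranged from -0.44 to 1.81. Genotype differences of the 10 probes of the first 2 intervals without IL-4 lay between -0.11 and 0.34.

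Of the 19 probes with the genotype pattern, 5 passed the 2-fold threshold with IL-4 in wild type (Lct, Daf2, Chil1 and the first probes of Pik3c2b and Etnk2; 12.3% of all probes passed), 2 in the knockout (the last Etnk2 probe and the unnamed probe near it; 3.27% of all probes), and 2 (Chil1 and the first Etnk2 probe; 10.5% of all probes) differed past the threshold in their IL-4 response between the genotypes. With slide as a block neither knockout response passed, at 0.65 (adjusted p = 0.0424) for the last Etnk2 probe, under 2-fold, and 0.51 (adjusted p = 0.245) for the unnamed probe A_55_P2067563. That difference is built from the same arrays as the genotype differences. Over all 153 probes 16 responses differed past the threshold, or 10.5% against a background of 10.5%, of which 11 were more positive in wild type (5.52% of all probes) and 5 more negative (4.97%). The split was 8 and 8 after quantile normalization and 9 and 8 after scaling to the median.

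The genes of the stretch were also counted by role, from lists drawn up from general knowledge, beside shares over all probes of 25.9% rising and 29.4% falling in wild type, 25.9% and 13.7% in the knockout, and median changes of -0.03 and 0.05. Immune receptors and lymphocyte signalling genes had 15 kept probes of 12 genes. In wild type 4 rose and 7 fell (median change -0.25), and in the knockout 4 rose and 2 fell (median -0.06; 3 rose with slide as a block, and neither fall held). Ptprc fell by 0.54 (SE 0.05, adjusted p = 1.29e-05) in wild type and read 0.08 in the knockout (adjusted p = 0.247). Rassf5, a Ras effector in lymphocyte adhesion, fell by 0.58 (SE 0.08, adjusted p = 0.000142) and read 0.14 (adjusted p = 0.18). Pigr, which carries polymeric immunoglobulin across epithelia, fell by 0.76 (SE 0.21, adjusted p = 0.00993) in wild type, but its value from the authors' deposited gene-level table was 0.81, in the other direction. Mapkapk2, a kinase below p38, rose by 0.23 (adjusted p = 0.000777) in wild type and by 0.38 (adjusted p = 8.53e-05) in the knockout (SE 0.04 each).

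Cell cycle, chromatin and transcription genes had 21 kept probes of 14 genes, with 5 rising and 4 falling in wild type (median 0.08) and 7 rising and 6 falling in the knockout (median -0.04; 4 and 5 with slide as a block). Rbbp5, a subunit of histone methyltransferase complexes, rose by 0.26 (adjusted p = 0.00485) in wild type and by 0.66 (adjusted p = 3.24e-05) in the knockout (SE 0.06 each). Kdm5b, a histone H3K4 demethylase gene, read 0.08 to 0.51 at its 4 probes in wild type, none past the test. In the knockout 3 of the 4 fell, for example by 0.71 (SE 0.08, adjusted p = 0.000105) at the last probe. Of these 3, the call of the first probe (-0.8, adjusted p = 0.0338) was lost without knockout control replicate 2 (-0.81, adjusted p = 0.0745) or 3 (-0.59, adjusted p = 0.119), or without knockout IL-4 replicate 1 (-0.53, adjusted p = 0.12) or 2 (-0.79, adjusted p = 0.0813), after quantile normalization (-0.6, adjusted p = 0.0793), with no filter on dim probes (adjusted p = 0.105) and on the compared arrays only (adjusted p = 0.108). Kif14, a mitotic kinesin gene, rose by 0.84 (SE 0.19, adjusted p = 0.00351) in wild type and read 0.53 (SE 0.19, adjusted p = 0.0498) in the knockout. Its knockout call was lost with slide as a block (adjusted p = 0.232), after normexp (0.0935) and with no filter on dim probes (0.146). It was also lost when 1 array was left out in 9 of 12 cases.

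RNA, translation and metabolism genes had 19 kept probes of 12 genes, with 8 rising and 5 falling in wild type (median -0.02) and 9 rising in the knockout (median 0.23). Dars rose by 0.38 (SE 0.07, adjusted p = 0.001) in wild type and read -0.01 (adjusted p = 0.949) in the knockout. Adipor1, an adiponectin receptor gene, read 0.22 (adjusted p = 0.00988) and 0.33 (adjusted p = 0.00159). Its wild-type call was lost under median scaling (0.24, adjusted p = 0.0655) and with no filter on dim probes (0.22, adjusted p = 0.0638). Trafficking, cytoskeleton and membrane genes had 17 kept probes of 13 genes, with 9 rising and 2 falling in wild type (median 0.31) and 8 rising and 2 falling in the knockout (median 0.05; 4 rising and 2 falling with slide as a block). Genes best known from muscle, nerve, skin, cartilage or kidney had 6 kept probes of 5 genes out of 23 listed. The list also held the gut gene Lct, with a wild-type change of -1.27 (SE 0.28, adjusted p = 0.00277). Of these 6, 4 fell in wild type (median -1.34) and 2 fell in the knockout (median -0.64), the falls in both genotypes being those of the 2 Cacna1s probes.

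The neighbouring stretches and the surroundings of Stat6 were counted in the same way, as a description. Both genotype comparisons were passed in the same direction by 1 of 30 kept probes between 120 and 130 Mb of chromosome 1 (3.33%) and by 2 of 28 between 140 and 150 Mb (7.14%), against 12.4% in the stretch and 0.366% over the array. Without IL-4, 9 of 161 kept probes within 10 Mb of Stat6 on chromosome 10 passed (5.59%), against 13.7% of the stretch and 1.04% of all probes. The median absolute genotype difference without IL-4 was 0.21 in the stretch, 0.19 and 0.1 in the neighbours, 0.18 near Stat6 and 0.14 over the array. These differences between stretches were not tested.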

How the data were processed

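RNA of 12 B cell cultures (100 ng each, RIN 9.6 to 9.9 per the labels) was hybridised to one-colour Agilent arrays, scanned on 2 slides. The scanner intensity values (gProcessedSignal) are background-subtracted and were made by the authors with Agilent Feature Extraction 10.7.3.1, per the file headers, which also give assembly mm9. The authors also deposited a gene-level table of normalised log2 values, used only as an alternative. Its making is not given in the sources used here.

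The members, gene lists and rules for named genes were chosen with earlier results of these data known, and the lists come from general knowledge. Probes were named if they belonged to the list of 20 genes, were among the widest genotype differences, IL-4 changes or response differences, disagreed with another probe of the gene, or were at background in 1 genotype. Other probes named were picked after their values were seen.

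From the intensities, log2 values minus each array's 75th percentile over 59305 non-control spots were taken, outlier spots were dropped and repeated spots averaged per probe. limma 3.58.1 in R 4.3.3 was fitted over 22940 kept probes and 12 arrays, with Benjamini-Hochberg adjustment over all of them. Probes passed the threshold at an adjusted p under 0.05 and a log2 change of at least 1; "rose" and "fell" need only the former. The fit was tested on simulated data. Alternatives were quantile and median scaling, normexp, other filters, slide or replicate number as a block, fits on the compared arrays only, counts by gene, the deposited table, and each array left out. Same-numbered arrays of different groups had deviations correlating at -0.23 to 0.36, over 0.1 in 2 of 18 pairs. Both were knockout arrays without and with IL-4, at 0.29 for replicate 1 and 0.36 for replicate 3, with -0.02 for replicate 2. In wild type these values were 0.05, 0.1 and 0.04. The numbers were not taken to pair samples, and a pairing within each genotype was not fitted. Of 153 members with a RefSeq accession 140 matched the RefSeq table (GRCm38.p6), used for current names only. No genome of the files' assembly was used, so exon and intron positions are not given. The number of arrays limits the precision.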

Additional observations from a re-analysis of the deposited data

Results flagged for a closer look

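At 16 kept probes of the stretch the change with IL-4 was unlike in the 2 genotypes past the threshold, by the test of the difference itself (wild-type change minus knockout change, limma, adjusted over 22940 probes). These differences share their arrays with the genotype comparisons that chose the stretch, so they are not separate evidence of a genotype pattern there.

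Responses were more positive in wild type at 11 probes. The differences were 3.44 (SE 0.48, adjusted p = 0.000287) and 2.73 (SE 0.55, adjusted p = 0.00289) for Mfsd4, where wild type rose and the knockout fell. They were 1.91 (SE 0.19, adjusted p = 3.21e-05) for Cdk18 and 1.81 (SE 0.41, adjusted p = 0.0061) for Chil1, whose knockout arrays were all at background. The 2 probes of Cyb5r1 gave 1.53 (SE 0.16, adjusted p = 4.72e-05) and 1.35 (SE 0.09, adjusted p = 1.39e-06). Kdm5b gave 1.31 (SE 0.37, adjusted p = 0.0168) at its first probe and 1 (SE 0.3, adjusted p = 0.0225) at its second. One probe each of 3 intervals followed, with 2.34 (SE 0.8, adjusted p = 0.0377) for chr1:138546641-138558591_F, 1.39 (SE 0.34, adjusted p = 0.00844) for chr1:134867906-134885481_R and 1.1 (SE 0.36, adjusted p = 0.0331) for chr1:138528250-138538250_F.

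Responses were more negative in wild type at 5 probes. Cacna1s gave -2.19 (SE 0.18, adjusted p = 7.97e-06) and -1.61 (SE 0.23, adjusted p = 0.00031), Etnk2 gave -1.79 (SE 0.41, adjusted p = 0.00618) at its first probe, Lax1 gave -1.72 (SE 0.15, adjusted p = 1.14e-05) and LOC102643057 gave -1.64 (SE 0.43, adjusted p = 0.0116).

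Of the 16 probes, 3 were above background on all 3 arrays of wild type with IL-4 and of no other group: the second Mfsd4 probe given (2.73) and those of chr1:138546641-138558591_F and chr1:138528250-138538250_F. They were tested only because that group was high, and their differences are set against groups largely at background. With no filter on dim probes the calls of these 2 intervals were lost (adjusted p = 0.112 and 0.103). Those of the first and second Kdm5b probes were lost there too (adjusted p = 0.0582 and 0.076). Under quantile normalization the 2 interval calls were also lost (adjusted p = 0.0675 and 0.0977). Median scaling lost the call of chr1:138528250-138538250_F (0.97, adjusted p = 0.0595).

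Some of these calls rested on single settings or arrays. The Etnk2 difference was -0.97 with slide as a block (adjusted p = 0.0117), under 2-fold. The LOC102643057 call was lost with slide as a block (-1.55, adjusted p = 0.0504). The chr1:138546641-138558591_F call was lost with slide as a block (1.76, adjusted p = 0.18) and when 1 array was left out in 7 of 12 cases, with values of 2.02 to 2.41; its knockout controls read -1.9, -4.35 and -3.99. The chr1:138528250-138538250_F call was lost in 8 of 12 cases, with values of 0.82 to 1.12, and the second Kdm5b call in 4 of 12, with values of 0.84 to 0.92. These counts of cases take the adjusted p alone, without the 2-fold minimum.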

How the results depend on the processing

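Counts of the stretch are given in the order genotype without IL-4, genotype with IL-4, IL-4 in wild type, IL-4 in the knockout and difference of responses, 21, 34, 27, 6 and 16 as reported. They stayed within 1.5 times of these under quantile or median scaling, without a filter on dim probes, with slide as a block and on the compared arrays only. They became 8, 16, 9, 1 and 8 after normexp correction, 9, 14, 10, 2 and 8 among probes above background on all arrays, and 38, 88, 90, 55 and 51 with no fold minimum. By gene name (96 names) the last 4 counts were 22, 17, 3 and 7. The deposited gene-level table gave 6, 12, 4, 0 and 6 of 97 names; for its count of 0 (limma), 51 names had an unadjusted p under 0.05 and 44 an adjusted one. Leaving out 1 array gave 15 to 22, 32 to 35, 21 to 27, 4 to 10 and 14 to 20. With replicate number as a block, which tied same-numbered arrays across the genotypes, the counts were 20, 34, 27, 6 and 15.

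Of the 19 probes past the threshold in both conditions, none changed sign under any setting run on probes, and 17 or 18 kept both calls under median or quantile scaling, 8 after normexp, 15 without a filter, 14 with slide as a block and 15 to 19 with 1 array left out; 9 of the 9 above background on all arrays kept them. Among the probes named by rule, calls on IL-4 changes and response differences were compared by the adjusted p alone, without the 2-fold minimum. So counted, 6873 values kept their call or its absence, or were genotype differences moving by less than the spread of arrays. Another 159 untested genotype differences moved by more, and 222 values lost and 105 gained a call. One was reversed: the ENSMUST00000054333 probe at chr1:139826681 read 0.36 in wild type, and -0.68 (adjusted p = 0.0239) to 1.03 with 1 array left out, -0.68 being the value without wild-type IL-4 replicate 3, which read -0.34 beside -3.13 and -3.75. Median scaling moved the median of all probes from -0.04 to -0.22 without IL-4 and from 0.05 to 0.2 with IL-4 in the knockout. The cause of these shifts was not tested, and signals near background limit the dim probes.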

Other observations

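A few further genes of the stretch responded to IL-4 and were picked after their values were seen; Nuak2 and Tmem9 are members of the trafficking list above. Nuak2, a kinase of the AMPK family, read -0.11 in wild type (adjusted p = 0.218) and rose by 0.77 (adjusted p = 3.46e-05) in the knockout. Both probes of Tmem9, a lysosomal membrane protein gene, rose in wild type, by 0.67 (adjusted p = 1.44e-05) and 0.63 (adjusted p = 3.16e-05). Srgap2 rose by 0.72 (adjusted p = 6.41e-07) in wild type and by 0.28 (adjusted p = 0.00159) in the knockout at 1 of its 2 probes. AA986860 rose by 1.02 (adjusted p = 2.69e-05) in wild type and read 0.45 in the knockout (adjusted p = 0.0105; 0.237 with slide as a block).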
